A study of Mus musculus with 57 samples.

Results

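The endoplasmic reticulum (ER) arm of the unfolded protein response was followed through 10 listed genes, Atf6, Xbp1, Hspa5, Hsp90b1, Calr, Dnajb9, Sdf2l1, Pdia4, Herpud1 and Edem1. These were chosen by gene symbol for their known roles, with earlier results of these data known. They are 10 of the 52853 genes kept from the deposited counts. Polyadenylated RNA was sequenced from adipose tissue of male mice homozygous for Mfn2 R707W, a knock-in (KI) of the arginine-to-tryptophan change of mitofusin 2, the outer mitochondrial membrane protein of fusion, and from wild-type (WT) mice. From 5 weeks of age the mice were given chow or a high-fat diet (HFD, 45% of kcal as fat) for 6 months. The 6 groups were inguinal white adipose tissue (WAT) on HFD with 8 WT and 8 KI mice, inguinal WAT on chow with 7 WT and 6 KI mice, and brown adipose tissue (BAT) on HFD with 6 WT and 6 KI mice. All KI mice descend from a single founder on the C57BL/6J background and carry the allele in every tissue, so that the difference is one between whole animals of this line. Each mouse and tissue is a replicate.

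Newly made secreted and membrane proteins fold in the ER with the help of chaperones and disulphide isomerases, and those that fail are passed to the cytosol for ER-associated degradation (ERAD). When unfolded proteins accumulate, the sensors Ire1α, Perk and Atf6 respond. Ire1α splices Xbp1 mRNA, Atf6 is cut and enters the nucleus, and together with the spliced form of Xbp1 it drives chaperone and ERAD genes, whereas Perk phosphorylates eIF2α and raises translation of Atf4. The last branch is shared with the integrated stress response (ISR), which other kinases can start from mitochondrial stress without a load of unfolded protein in the ER. Chaperone and ERAD mRNAs can therefore be set beside the Atf4 targets of the ISR and beside the chaperones and proteases of mitochondria. Gene counts do not separate spliced from unspliced Xbp1, and do not show protein, cleavage of Atf6 or phosphorylation.

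Binding of Atf6 and Xbp1 is known at short promoter motifs, so the promoters of the listed genes were searched for them first. RefSeq windows of 250 bases before to 50 bases after the start site (GRCm38.p6) were found for 9 of the 10 genes, all but Atf6. The ER stress response element (ERSE), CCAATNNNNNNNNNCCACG on either strand, was in 3 of these 9 genes, Hspa5, Hsp90b1 and Calr, and in 0.137% of the 27025 genes with a window. The related ERSE-II, ATTGGNCCACG, was in 1 of 9, Herpud1, against 0.0444% of all genes. The Xbp1 element core TGACGTGG was in 0 of 9 (0.714% of all), and TGATGNAA, the element of Atf4 with C/EBP partners, was in 1 of 9, again Herpud1 (4.51% of all). Among 48 other ER genes, ERSE was in 6 of the 36 with a window, and among the ISR genes in 0 of 28, of which 11 held TGATGNAA. ERSE, ERSE-II and the Xbp1 core share the letters CCACG on one strand, but no 2 matches overlapped in these genes. The genes were listed for known roles in this response, so that their share with a match is a description and not an independent test. The 4 stretches that hold a match are shown. They are the 250 bases before the start site, 5′ to 3′ along the gene, with each match in capitals, at chr2:34771840-34772089 (plus strand), chr10:86705445-86705694 (minus strand), chr8:84846932-84847181 (minus strand) and chr8:94386179-94386428 (plus strand).
Hspa5: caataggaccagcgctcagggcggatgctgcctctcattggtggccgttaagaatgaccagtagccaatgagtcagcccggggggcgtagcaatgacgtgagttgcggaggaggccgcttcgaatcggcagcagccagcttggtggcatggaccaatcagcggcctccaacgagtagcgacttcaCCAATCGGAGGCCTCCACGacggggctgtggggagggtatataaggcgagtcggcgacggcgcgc
Hsp90b1: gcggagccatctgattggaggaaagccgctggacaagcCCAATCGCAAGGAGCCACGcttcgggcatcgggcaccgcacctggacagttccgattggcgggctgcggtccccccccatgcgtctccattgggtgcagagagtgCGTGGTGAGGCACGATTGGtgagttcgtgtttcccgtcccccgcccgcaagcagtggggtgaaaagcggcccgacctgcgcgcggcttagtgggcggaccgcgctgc
Calr: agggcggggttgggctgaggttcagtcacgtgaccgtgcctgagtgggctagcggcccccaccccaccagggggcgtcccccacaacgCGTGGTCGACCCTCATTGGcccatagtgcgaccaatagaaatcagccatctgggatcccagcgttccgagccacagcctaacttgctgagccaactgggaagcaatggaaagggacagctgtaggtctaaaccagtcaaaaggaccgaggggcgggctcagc
Herpud1: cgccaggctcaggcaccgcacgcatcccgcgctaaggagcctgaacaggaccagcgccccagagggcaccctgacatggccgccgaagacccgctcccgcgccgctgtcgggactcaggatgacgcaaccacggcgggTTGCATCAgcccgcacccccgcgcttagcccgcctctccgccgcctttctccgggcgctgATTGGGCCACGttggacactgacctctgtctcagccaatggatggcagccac

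In Hspa5 the match lies at bases -65 to -47 from the start site, and in Calr at -162 to -144 on the opposite strand. Hsp90b1 has 2 matches, at -212 to -194 and, on the opposite strand, at -107 to -89. Herpud1 has ERSE-II at -52 to -42 and the Atf4 element at -112 to -105 on the opposite strand. No match was found in the windows of Xbp1, Dnajb9, Sdf2l1, Pdia4 and Edem1, which says only that these letters are not there.

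Libraries held 17572752 to 25680411 counts on genes in inguinal WAT on HFD, where each column covers 2 technical libraries of a mouse, and 8042591 to 11720458 in the other tables. Every listed gene passed the low-count filter in each table. The scarcest, Sdf2l1, had 20 to 59 counts per mouse in BAT, and no other member fell under 146 counts in any mouse. Mitochondrially encoded genes in inguinal WAT on HFD took 5.40% to 14.8% of counts among WT mice and 2.15% to 3.68% among KI mice. Skeletal muscle markers (6 genes) reached 62310 CPM (counts scaled to library size with TMM factors, a correction for library composition), summed over the list, in KI chow mouse 4 and lay between 1194 and 4019 CPM in 6 mice of the other tables, against medians of 4.69 to 258 in the 6 groups. The adipocyte markers, which include Adipoq, were high in every mouse (15792 to 44287 CPM), and the brown adipocyte markers were at 6723 CPM or more in every BAT library and at 516 CPM or less in inguinal WAT. In inguinal WAT of HFD-fed mice Mfn2 itself was at 182 ± 24.0 CPM (WT) and 231 ± 27.1 CPM (KI). The values were 193 ± 33.2 and 247 ± 27.5 on chow, and 276 ± 12.9 and 338 ± 48.0 for BAT (SD, n = 8 and 8, 7 and 6, and 6 and 6). CPM were scaled within each table, so that they compare genotypes within a table and not levels between tables. The counts of Mfn2 do not show which allele was read.

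The first question was whether the ER genes differed between KI and WT mice. In inguinal WAT on HFD, 3 of the 10 were higher in KI mice and none was lower: the sensor Atf6, the transcription factor Xbp1 and the disulphide isomerase Pdia4 (edgeR's quasi-likelihood test, adjusted p below 0.01). The chaperones Hspa5, Hsp90b1 and Calr did not pass. Over all 16471 genes tested, 11.5% were called in one direction or the other in the same test. On chow no member passed, against 3.23% of 14629 genes, and in BAT Edem1 alone passed, against 1.83% of 13267 genes. Across the 10 genes the log2 fold changes had medians of 0.16 (inguinal WAT, HFD), 0.14 (inguinal WAT, chow) and -0.02 (BAT), where the median of all genes tested was 0.0055, -0.0085 and -0.013. In bulk tissue, fewer cells of a type and less RNA per cell cannot be told apart.

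**Figure D1:**
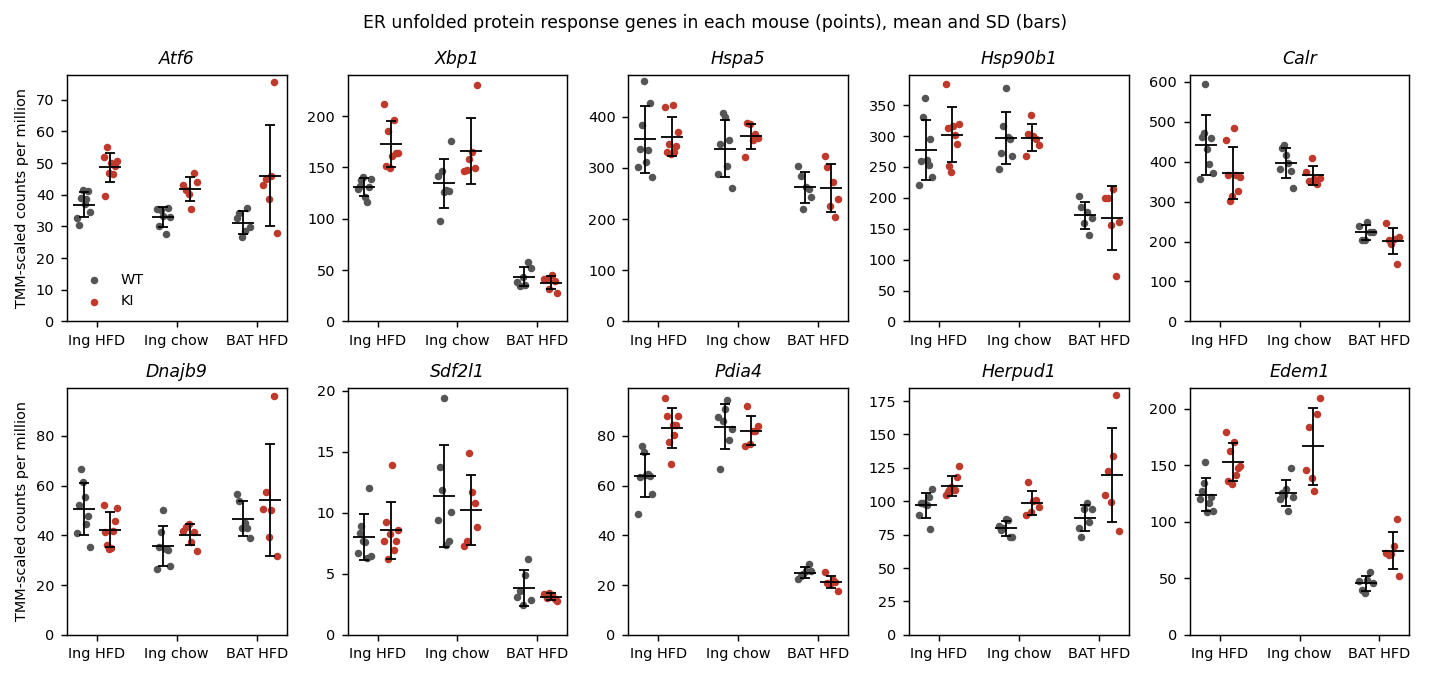
TMM-scaled CPM (linear axis from 0) of the 10 genes in each mouse, by tissue and diet, with WT mice in grey and KI mice in red. Horizontal bars are group means and vertical bars 1 SD (n = 6 to 8). CPM were scaled within each table, so that heights compare mice of the same table only. The KI mice lie above the WT mice for Xbp1 in inguinal WAT on HFD and for Herpud1 on chow, while Hspa5, Hsp90b1 and Calr overlap in all 3 tables; in BAT the highest Atf6, Dnajb9, Herpud1 and Edem1 and the lowest Hspa5, Hsp90b1 and Calr are from the same KI mouse.

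Atf6 encodes the membrane-bound sensor that becomes a transcription factor once cut in the Golgi (ENSMUSG00000026663, chromosome 1, 170704674 to 170867771, minus strand). Its lowest, median and highest values in inguinal WAT on HFD were 30.4, 37.9 and 41.6 CPM in WT mice and 39.7, 49.4 and 55.2 CPM in KI mice. All but 1 of the KI mice (7 of 8) lay above every WT mouse. The log2 fold change was 0.40 (standard error 0.077, 95% interval 0.24 to 0.56, adjusted p = 0.00107 from edgeR). On chow, 5 of 6 KI mice were above every WT mouse, with medians of 33.2 CPM for WT and 42.3 CPM for KI mice, and the log2 fold change, 0.35 with a standard error of 0.084, missed the threshold (adjusted p = 0.0190). Without KI chow mouse 4, the mouse rich in skeletal muscle markers, it passed (log2 fold change 0.39, adjusted p = 0.00898). In BAT the KI mice spread widely, from 27.9 through a median of 44.1 to 75.5 CPM, beside 26.5, 31.3 and 35.7 CPM in WT mice, and the log2 fold change of 0.56 (standard error 0.18) did not pass (adjusted p = 0.0694).

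Xbp1 encodes the transcription factor whose mRNA Ire1α splices (ENSMUSG00000020484, chromosome 11, 5520659 to 5525893, plus strand). Its values on HFD in inguinal WAT ran from 117 through a median of 131 to 141 CPM in WT mice and from 150 through 164 to 212 CPM in KI mice. All 8 KI mice were above every WT mouse, the only member separated in this table, where 4.75% of genes were separated in either direction. The log2 fold change was 0.41 (standard error 0.076, 95% interval 0.25 to 0.57, adjusted p = 8.71e-04). On chow it was 0.30 (standard error 0.13, adjusted p = 0.179), where WT mice lay between 97.9 and 176 CPM and KI mice between 146 and 230 CPM. The highest of these, KI mouse 6, stood apart from the next at 165 CPM, and without it the log2 fold change was 0.19. In BAT the value was negative, -0.20 (standard error 0.15, adjusted p = 0.412), at medians of 40.6 CPM for WT and 40.2 CPM for KI mice.

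Hspa5 encodes BiP, the main Hsp70 chaperone of the ER and the standard readout of ER stress (ENSMUSG00000026864, chromosome 2, 34771970 to 34777547, plus strand). Inguinal WAT on HFD had 282 to 469 CPM in WT mice (median 336) and 328 to 422 CPM in KI mice (median 345), and no KI mouse lay outside the WT range. The log2 fold change was 0.02, with a 95% interval from -0.20 to 0.24 (adjusted p = 0.919). On chow the medians were 348 and 362 CPM and the log2 fold change was 0.10 (interval -0.14 to 0.34, adjusted p = 0.620), and in BAT they were 261 and 256 CPM and it was -0.01 (interval -0.28 to 0.27, adjusted p = 0.986). Of the 3 intervals, the one on chow reached farthest from 0.

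Hsp90b1, which encodes the ER chaperone Grp94, was likewise within the spread between mice (ENSMUSG00000020048, chromosome 10, 86690209 to 86705509, minus strand). Its medians in WT and KI mice were 260 and 308 CPM in HFD-fed inguinal WAT, 295 and 298 CPM in the chow-fed mice, and 173 and 181 CPM in BAT. The log2 fold changes were 0.12, 0.0044 and -0.04, with 95% intervals from -0.11 to 0.35, -0.21 to 0.22 and -0.46 to 0.38. Exons of 1810014B01Rik, Gm15344 and Gm25745 overlap this gene, and counts on overlapping exons may have been divided or dropped.

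Calr encodes calreticulin, the calcium-binding lectin chaperone that holds newly made glycoproteins (ENSMUSG00000003814, chromosome 8, 84841850 to 84846934, minus strand). It was the most abundant of the 10 per kilobase in every group, and the log2 fold change was negative in each table: -0.25 in inguinal WAT on HFD (adjusted p = 0.138), -0.12 on chow (adjusted p = 0.431) and -0.15 in BAT (adjusted p = 0.462). The WT mice of that first table spanned 355 to 595 CPM and the KI mice 301 to 484 CPM, and 3 of 8 KI mice were below every WT mouse. The 3 genes with an ERSE match thus had log2 fold changes between -0.25 and 0.12, and none was called in any of the 3 comparisons of genotype.

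The co-chaperones gave no call either. Dnajb9 encodes ERdj4, a J protein that works with BiP (ENSMUSG00000014905, chromosome 12, 44205559 to 44210326, minus strand). Its log2 fold change was -0.26 in inguinal WAT on HFD (95% interval -0.52 to 0.0019, adjusted p = 0.155), 0.18 on chow (adjusted p = 0.452) and 0.21 in BAT (adjusted p = 0.566). The BAT value became -0.02 without KI mouse 5. Sdf2l1, a partner of ER J proteins (ENSMUSG00000022769, chromosome 16, 17130138 to 17132383, minus strand), was the scarcest, at medians of 7.62 and 7.97 CPM in WT and KI mice in inguinal WAT on HFD, 10.1 and 9.84 on chow, and 3.31 and 3.14 in BAT. Its log2 fold changes of 0.10, -0.16 and -0.30 had standard errors of 0.16 to 0.24. Its 95% interval for inguinal WAT on HFD, from -0.25 to 0.44, includes the changes of Atf6 and Xbp1. The coefficient of variation between mice there was 27.4% in KI and 23.6% in WT mice.

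Pdia4 encodes the ER disulphide isomerase Erp72 (ENSMUSG00000025823, chromosome 6, 47796141 to 47813430, minus strand). On HFD the inguinal values ran from 48.5 through 64.2 to 75.9 CPM in WT and from 68.7 through 84.4 to 95.5 CPM in KI mice, with 7 of 8 KI mice above every WT mouse. The log2 fold change was 0.38 (standard error 0.085, 95% interval 0.20 to 0.56, adjusted p = 0.00324). On chow the groups coincided, at medians of 86.0 CPM for WT and 81.9 CPM for KI mice, and the log2 fold change was -0.03, with a standard error of 0.082 and an adjusted p of 0.868. In BAT the order was turned, with 5 of 6 KI mice below every WT mouse and medians of 24.9 CPM for WT and 21.0 CPM for KI mice, but the log2 fold change of -0.24 (standard error 0.10) did not pass (adjusted p = 0.175).

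The listed ERAD genes, Edem1 and Herpud1, were positive in all 3 tables. Edem1, which encodes a lectin that takes misfolded glycoproteins out of the folding cycle (ENSMUSG00000030104, chromosome 6, 108828641 to 108859356, plus strand), rose in BAT. There it ran from 36.9 through 46.4 to 55.9 CPM in WT and from 52.2 through 71.8 to 102 CPM in KI mice, with 5 of 6 KI mice above every WT mouse. The log2 fold change was 0.71 (standard error 0.14, 95% interval 0.41 to 1.01, adjusted p = 0.00757), the largest of the members' values in the 3 comparisons of genotype. It was 0.30 in inguinal WAT on HFD (standard error 0.081, adjusted p = 0.0127) and 0.41 on chow (standard error 0.12, adjusted p = 0.0446), neither of which passed. The call in BAT was lost in 9 of the 12 fits that left out a mouse, with adjusted p from 0.0123 to 0.0215 in these and log2 fold changes of 0.60 to 0.81 over all 12. It was also lost without WT mice 1 and 2, which were rich in skeletal muscle markers (0.67, adjusted p = 0.0364). That fit called 192 of 13542 genes, where the fit of all mice called 243 of 13267.

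Herpud1 encodes the ER membrane protein that organises the ubiquitin ligase of ERAD (ENSMUSG00000031770, chromosome 8, 94386438 to 94395377, plus strand). On chow every KI mouse was above every WT mouse, at 73.2 to 87.0 CPM in WT and 89.7 to 114 CPM in KI mice, the only member so separated there, where 4.32% of genes were. Its log2 fold change of 0.31 (standard error 0.073, 95% interval 0.15 to 0.46) had an adjusted p of 0.0166. It was 0.20 in inguinal WAT on HFD (standard error 0.065, adjusted p = 0.0328) and 0.46 in BAT (standard error 0.16, adjusted p = 0.0942), with 5 of 6 KI mice in BAT above every WT mouse. No member was separated in BAT, where 3.56% of genes were.

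**Figure D2:**
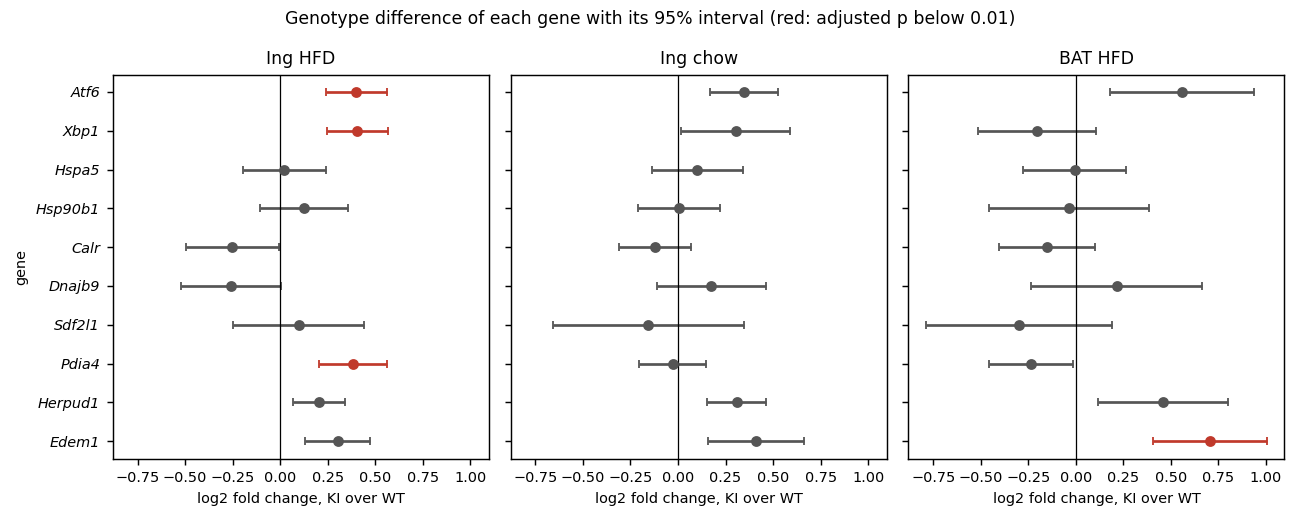
Log2 fold change of KI over WT mice for each gene (points) with its 95% interval (bars), in inguinal WAT on HFD, inguinal WAT on chow and BAT on HFD; red marks an adjusted p below 0.01. Atf6, Herpud1 and Edem1 lie to the right of 0 in all 3 panels, the chaperones Hspa5 and Hsp90b1 lie near 0, and Pdia4 and Xbp1 lie to the right of 0 in inguinal WAT on HFD (0.38 and 0.41) and to the left in BAT (-0.24 and -0.20).

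On chow 0 members passed in edgeR's test, while 4 had an unadjusted p below 0.05, against 3560 of 14629 genes. DESeq2 called 2, Atf6 and Herpud1, and its share over all genes is not given here. In inguinal WAT on HFD the 3 calls held in each of the 16 fits that left out 1 mouse. They were lost when the 4 mice with the most skeletal muscle markers were left out together, a choice made after seeing the data. Log2 fold changes were then 0.29 for Atf6, 0.40 for Xbp1 and 0.34 for Pdia4, with edgeR's adjusted p of 0.0229, 0.0135 and 0.0231 (n = 6 WT and 6 KI mice). This smaller fit called 1004 of 16492 genes, where the fit of all mice called 1886 of 16471. One joint fit of the 6 groups kept Pdia4 alone in that table and called Atf6 and Herpud1 beside Edem1 in BAT.

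In BAT several extremes came from KI mouse 5. It had the highest value of all 12 mice for Atf6 (75.5 CPM), Dnajb9 (95.8), Herpud1 (180) and Edem1 (102), and the lowest for Hspa5 (204), Hsp90b1 (73.1) and Calr (145). These genes thus went apart in this mouse, with Atf6, Dnajb9 and the 2 ERAD genes high and the abundant chaperones low. Sdf2l1, the other co-chaperone, and Xbp1 were not among the high genes. Their highest values in BAT were 3.46 and 45.3 CPM in KI mice and 6.23 and 57.9 CPM in WT mice. KI mouse 5 also had the lowest Ddit3 of the 6 KI mice (84.9 CPM, where the highest had 481) and the highest Trib3 (299 CPM). Its library had the fewest genes detected of the 12 BAT mice (18189, where the next had 18379) and the highest share of counts in its 10 top genes among the KI mice (14.8%, where the next had 13.9%), and the part of this in its values was not tested. Its mitochondrially encoded share of 11.3% and its total of 9260559 counts were within the range of the other KI mice. Without it, Edem1 was still called (log2 fold change 0.60, adjusted p = 0.00920), and the log2 fold changes of Atf6 and Herpud1 were 0.37 and 0.31.

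Several marker lists moved with genotype. Markers of plasma cells, which depend on Xbp1, in the samples of inguinal WAT on HFD summed to 519 to 1805 CPM for WT and 95.8 to 785 CPM for KI mice, where all 6 tested of the 7 were negative and Ighm was called lower (log2 fold change -2.56). On chow the sums were 317 to 6498 and 150 to 952 CPM. In BAT they were 21.2 to 127 and 22.9 to 75.2 CPM, with 2 of the 7 at no more than 3 counts in every mouse. Fibroblast markers, from cells that secrete much protein, were negative for 7 of 7 genes in inguinal WAT on HFD (2495 to 4233 CPM for WT, 2047 to 3845 CPM for KI), for 6 of 7 on chow (2581 to 5500 and 1764 to 2891 CPM) and for 7 of 7 in BAT (431 to 1040 and 293 to 543 CPM), with Lum called in the first. Macrophage markers were negative for 6 of 7, 7 of 7 and 7 of 7 genes, with none called. B and T cell markers were positive for 7 of 7 tested genes on chow (median log2 fold change 1.33, none called), with sums of 12.5 to 135 CPM for WT and 6.84 to 496 CPM for KI mice, and for 3 of 8 in inguinal WAT on HFD. Brown adipocyte markers, of which 2 of 6 passed the low-count filter in inguinal WAT, summed to 12.8 to 58.8 CPM for WT and 72.8 to 516 CPM for KI mice on chow, without overlap, and to 7.89 to 17.7 and 16.5 to 46.9 CPM on HFD. Cidea, a lipid droplet protein of brown adipocytes, was called higher in both (log2 fold changes 3.02 and 1.55). The other marker tested on chow, Ppargc1a, was negative there (-0.70) and was not called. On HFD 2 of 2 tested were positive, and in BAT 6 of 6 of these markers were positive with none called. Of the 7 adipocyte markers, 2 were called higher and 2 lower in inguinal WAT on HFD, where 11.5% of all genes were called. On chow and in BAT 0 of the 7 were called. The part of these cells in the differences of the ER genes was not tested.

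The same comparisons were set beside a wider list of 48 other ER genes. For inguinal WAT on HFD 4 of the 48 were called higher and 1 lower, in chow-fed mice 3 higher and 0 lower, and in BAT 2 of 47 higher and 0 lower, with medians of -0.01, -0.03 and 0.04. The shares of all genes called in these tables were 11.5%, 3.23% and 1.83%, and nothing particular to the list is read from its counts. None of the 10 further chaperones and co-chaperones and none of the 12 genes of protein entry into the ER were called in any of the 3. Of the 9 oxidoreductases 1 was called in each table, and of the ERAD genes 3 of 12 were called higher and 1 lower in inguinal WAT on HFD, 2 of 12 higher on chow and 1 of 11 higher in BAT, so that most ERAD genes did not pass. On chow most of the 12 had negative log2 fold changes. Ero1l, which encodes the oxidase that recharges disulphide isomerases, was higher in all 3 tables, with log2 fold changes of 0.45 and 1.08 in inguinal WAT on HFD and on chow and 1.35 in BAT (adjusted p = 0.00212, 7.67e-04 and 0.00877). Derl1, a channel component of ERAD, had 0.74 and 0.98 in inguinal WAT on HFD and chow (adjusted p = 5.20e-07 and 0.00215) and 0.52 in BAT, which did not pass (adjusted p = 0.191). Sel1l, the adaptor of the ERAD ligase, passed on chow (0.48) and in BAT (0.55), and Derl2 was lower in inguinal WAT on HFD (-0.25, adjusted p = 6.89e-04).

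The ER arm was set against mitochondrial stress genes and the ISR. Of 18 mitochondrial chaperones and proteases, 4 were called higher in HFD-fed inguinal WAT, 5 in the chow-fed mice and 2 in BAT, and none lower, with medians of 0.20, 0.28 and 0.20. Of all genes tested 6.21%, 1.96% and 1.36% were called higher in these tables. Of the 10 ER genes 3, 0 and 1 were called higher, with medians of 0.16, 0.14 and -0.02. In inguinal WAT on HFD the medians of the ER and mitochondrial lists thus lay close together. Hspa9, the mitochondrial Hsp70, had log2 fold changes of 1.05, 1.37 and 0.92 (adjusted p = 1.39e-07, 1.99e-05 and 3.64e-04), beside 0.02, 0.10 and -0.01 for its ER counterpart Hspa5. Lonp1, the matrix protease, had 0.63, 1.18 and 0.94. The lowest of the called genes was Hspd1, the mitochondrial Hsp60, on both diets in inguinal WAT (0.55 and 0.64) and Hspa9 in BAT. Of the ISR genes, 18 of 32 were called higher in HFD-fed inguinal WAT, 13 of 31 in the chow-fed mice and 15 of 31 in BAT, none lower, with medians of 0.51, 0.60 and 1.04. Atf4 had log2 fold changes of 1.06 (adjusted p = 5.35e-07), 0.60 (adjusted p = 0.0112) and 0.68 (adjusted p = 0.0148), and Atf5 had 2.55, 2.08 and 1.93. Ddit3, which encodes Chop, had 1.37, 1.22 and 2.15, and Trib3 had 3.18, 3.65 and 3.54. The lowest of the called ISR genes encode tRNA synthetases, Sars at 0.42 in inguinal WAT on HFD and Nars at 0.41 on chow and 0.66 in BAT. The counts of these lists were not tested against one another. The lists hold genes of unlike abundance, and the study's own interest in the ISR guided them.

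**Figure D3:**
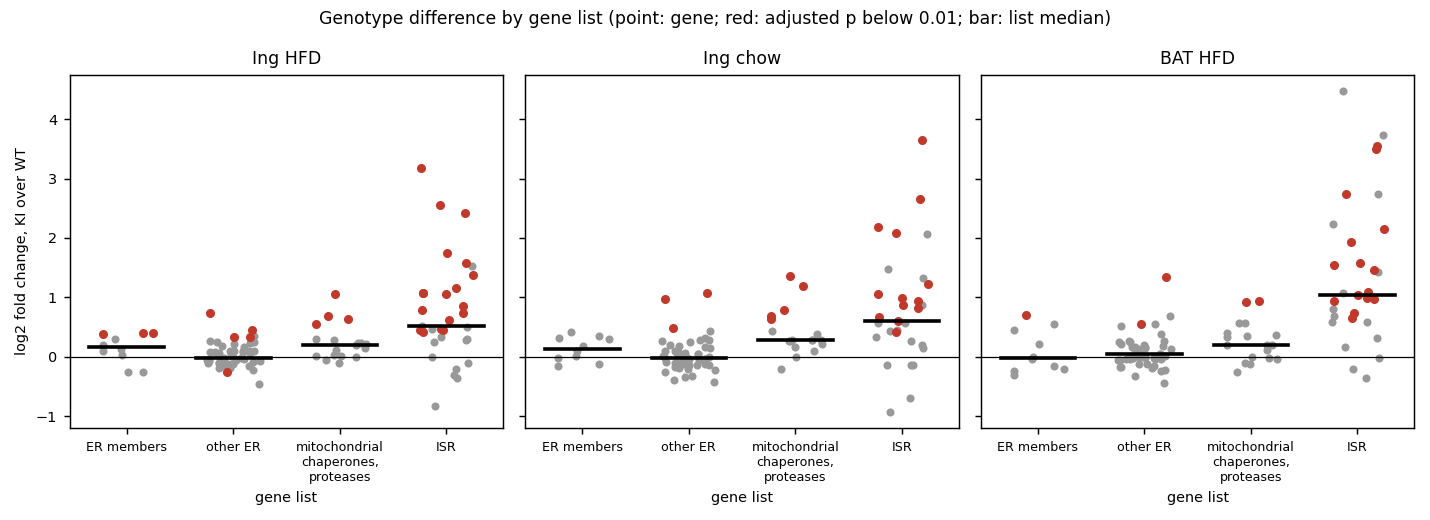
Log2 fold change of KI over WT mice for each gene tested (points) in the 10 ER genes, the 48 other ER genes, the mitochondrial chaperones and proteases and the ISR genes, in the 3 tables; red marks an adjusted p below 0.01 and the bar the list median. The medians of the ER lists lie between -0.03 and 0.16, those of the mitochondrial list between 0.20 and 0.28, and those of the ISR list between 0.51 and 1.04.

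Levels per length were compared over all 6 groups in fragments per kilobase scaled to library size (FPKM), computed from the counts with a joint scaling of the 41 libraries. Calr led in every group, from 92.4 ± 13.8 FPKM in BAT of KI mice to 135 ± 22.7 FPKM in inguinal WAT of HFD-fed WT mice (SD, n = 6 and 8), followed by Hspa5 at group means of 72.6 to 81.5 FPKM. Atf6 and Sdf2l1 were lowest. Hspa5 was the most even, its highest group mean being 1.12 times the lowest, with overlapping ranges throughout, and Hsp90b1 followed at 1.23 times. Xbp1 varied most, at 3.05 times, from 46.9 ± 9.21 FPKM in inguinal WAT of chow-fed KI mice to 15.4 ± 2.46 FPKM in BAT of KI mice. For Xbp1 and for Pdia4 (2.71 times) the lowest inguinal group and the highest BAT group had ranges that did not overlap, whereas all other neighbours in the order of the groups overlapped, for these genes and for the other 8. The share of all genes so separated between depots was not computed. Dnajb9 and Herpud1 had both of their highest group means in BAT, and Atf6 was highest in BAT of KI mice (6.62 ± 2.38 FPKM) and lowest in inguinal WAT of chow-fed WT mice (3.25 ± 0.302 FPKM).

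The depots were then compared on HFD. BAT and inguinal WAT came in separate tables, so that the depot and the table cannot be told apart, and whether the same mice gave both tissues is not stated. In WT mice 5 of the 10 genes were called, against 55.9% of 17214 genes, and in KI mice 7 of 10, against 59.1%, so that the members were called about as often as other genes. Xbp1 was lower in BAT, by log2 fold changes of -1.03 in WT and -1.61 in KI mice, as were Pdia4 (-0.80 and -1.38) and Edem1 (-0.89 and -0.44). Herpud1 was higher in BAT in both genotypes (0.40 and 0.69). Calr was called lower in WT mice (-0.43), Sdf2l1 was called lower in KI mice (-0.86), and Dnajb9 and Atf6 were called higher in KI mice (0.95 and 0.51). The 2 comparisons rest on different mice of each depot but share 1 fit.

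The genotype difference itself was tested between depots as an interaction. Pdia4 was the only member called, against 2.82% of genes, with a difference of -0.58 on the log2 scale (standard error 0.13, 95% interval -0.85 to -0.32, adjusted p = 0.00457), BAT being the lower. This is the gap between 0.38 in inguinal WAT and -0.24 in BAT given above. Xbp1 had a difference of nearly the same size, -0.58 (standard error 0.16, adjusted p = 0.0250), which missed the threshold. Edem1 and Dnajb9 leaned the other way, at 0.44 and 0.52 (adjusted p = 0.0922 and 0.217). For Hspa5 the difference was 0.0076, with a 95% interval from -0.31 to 0.33.

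Diet was compared within inguinal WAT, where it also coincides with the table and with the number of libraries per mouse. In WT mice 3 of the 10 genes were called, against 28.2% of 17400 genes: Dnajb9 and Herpud1 were higher on HFD (0.45 and 0.23, adjusted p = 0.00757 and 0.00631) and Pdia4 was lower (-0.44, adjusted p = 1.00e-04). In KI mice none was called in edgeR's test, against 30.6% of genes, and DESeq2 called none. By edgeR 1 member had an unadjusted p below 0.05, against 8725 of 17400 genes. Pdia4 was at a mean of 83.8 CPM in chow-fed WT mice, 63.9 in HFD-fed WT mice, 82.1 in chow-fed KI mice and 83.3 in HFD-fed KI mice. CPM were scaled within each table. With the joint scaling these means were 31.8, 23.4, 31.4 and 30.3 FPKM. By either measure the HFD-fed WT mice were the lowest of these 4 groups. As an interaction of genotype and diet this difference was 0.42 (standard error 0.12, 95% interval 0.18 to 0.67) and missed the threshold (adjusted p = 0.0514). No member was called for that interaction, against 0.632% of genes. There 2 members had an unadjusted p below 0.05, against 2927 of 17400 genes, and DESeq2 called 0.

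How the genes varied together from mouse to mouse was examined on log2 CPM centred on the mean of each genotype, which takes out the genotype difference. Over 45 pairs in each of 3 tables, 12 of 135 pairs passed an adjusted p of 0.05 by Pearson's r, and 12 by Spearman's rho, 8 of them the same (2-sided permutation tests, 100000 permutations within genotype). Of the 12 by Pearson's r, 9 were in HFD-fed inguinal WAT, 1 in the chow-fed mice and 2 in BAT. In inguinal WAT on HFD the chaperones formed a block (n = 16 mice). Hsp90b1 and Calr had r = 0.87 (rho = 0.84, adjusted permutation p = 0.00135). Hspa5 had r = 0.82 with Hsp90b1 and 0.83 with Calr (rho = 0.77 and 0.74, adjusted permutation p = 0.00702 and 0.00360). Pdia4 had r = 0.90 with Hsp90b1 and 0.81 with Dnajb9, and Edem1 had r = 0.82 with Hspa5. Without the 2 mice farthest from the median these 6 values lay between 0.77 and 0.89. Each was positive within KI and within WT mice taken alone.

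Of the genes called higher in KI mice in that table, Pdia4 thus varied with the chaperones. Atf6 had r = 0.62 and rho = 0.74 with Hspa5, of which rho alone passed (adjusted permutation p = 0.102 and 0.0413), and Xbp1 had r = 0.30 (rho = 0.32, adjusted permutation p = 0.442). Herpud1 had r = -0.36 with Hspa5 (rho = -0.18, adjusted permutation p = 0.479). Hspa5 and Hsp90b1 were the pair that recurred, with r = 0.76 on chow (rho = 0.80, adjusted permutation p = 0.0691 for r and 0.0413 for rho, n = 13) and 0.76 in BAT (rho = 0.85, adjusted permutation p = 0.0384, n = 12). On chow the pair that passed was Hsp90b1 and Dnajb9, with r = 0.85 (rho = 0.73, adjusted permutation p = 0.0245), which was 0.61 without the 2 farthest mice. In BAT Atf6 and Dnajb9 had r = 0.91 (rho = 0.72, adjusted permutation p = 0.0313), which was 0.98 within KI and 0.42 within WT mice and fell to 0.56 without the 2 farthest mice, so that it rests in part on KI mouse 5. With CPM taken without TMM factors, 23 pairs passed in place of 12, and 7 in place of 1 on chow, the table with the library rich in skeletal muscle markers.

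**Figure D4:**
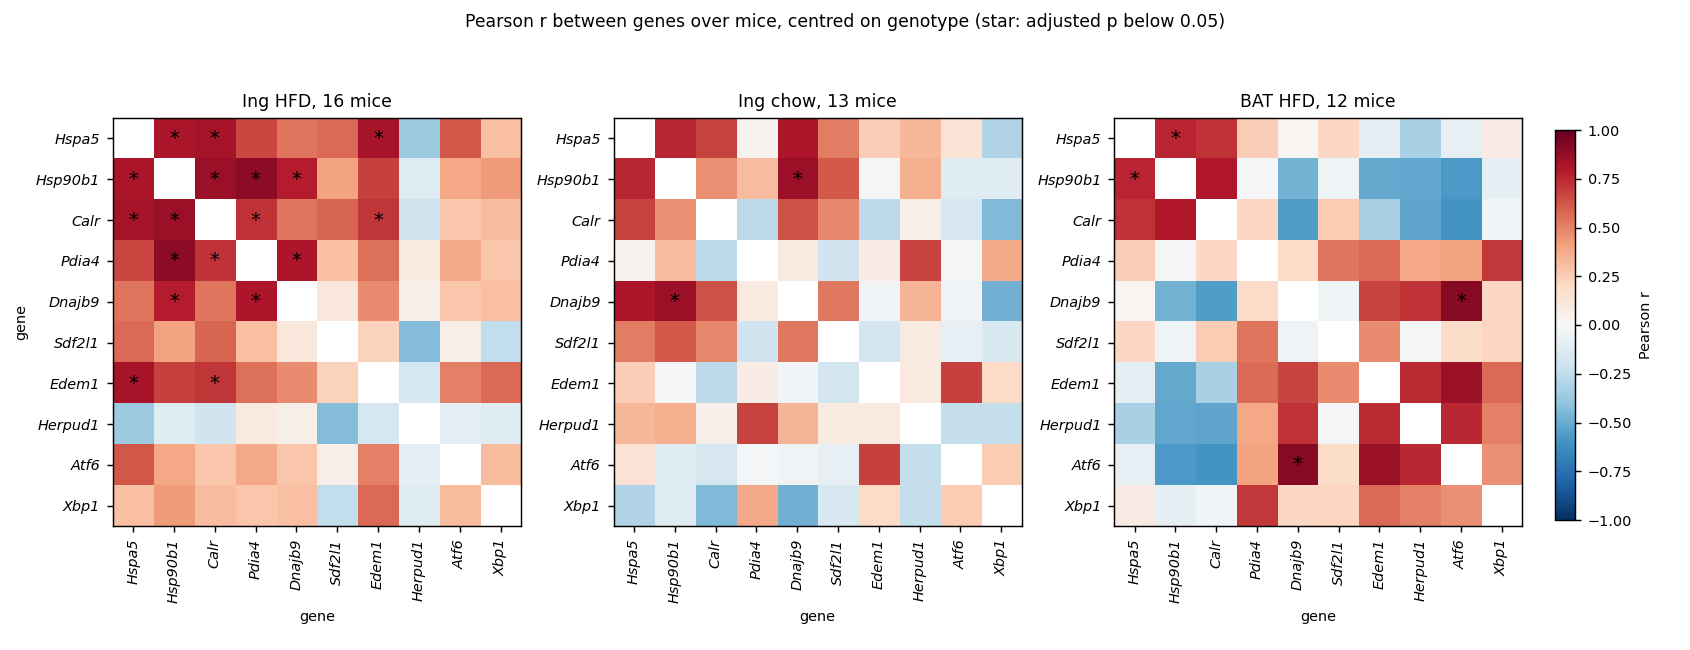
Pearson's r between the 10 genes over mice, on log2 CPM centred on the genotype means, in inguinal WAT on HFD (16 mice), inguinal WAT on chow (13 mice) and BAT on HFD (12 mice); the colour scale runs from -1 (blue) to 1 (red) and stars mark an adjusted permutation p below 0.05. The 9 pairs that passed in the first panel all lie among Hspa5, Hsp90b1, Calr, Dnajb9, Pdia4 and Edem1, while 1 pair passed on chow and 2 in BAT.

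The genes most like Hspa5 were taken from the whole of each table by the same centred r, as a description. In inguinal WAT on HFD they were Mlec (0.93), Serpinh1 (0.90), Hdlbp (0.89), Ccnd2 (0.89) and Srp72 (0.87) among 16470 genes, and the 50 most alike held 6 genes of the ER lists, Calr at rank 26, Edem1 at 44 and Hsp90b1 at 48 among them. On chow they were Ccdc112 (0.94), BC028528 (0.89), Capza1 (0.87), Lztfl1 (0.87) and Hspa1b (0.87), with 2 genes of the ER lists among the 50. In BAT they were Rrp36 (0.94), Rai2 (0.91), Dusp10 (0.91), Brd2 (0.90) and Ppid (0.90), with 1. No gene was among the 5 in more than 1 table.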

How the data were processed

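RNA from adipose tissue of 41 mouse and tissue samples was sequenced as polyadenylated, paired-end libraries, and per the labels the authors used cutadapt for trimming, STAR for alignment to GRCm38 and featureCounts for counting per gene (versions and strand setting not given in the sources used here). The authors deposited raw read counts with a gene length, in 1 table per tissue and diet, unfiltered. Entries without a length or count (1884) were left out, symbols listed more than once had the same counts and were used once (99 symbols), and 52853 genes were kept. Counts were tested with edgeR 4.0.16 (R 4.3.3): TMM factors, filterByExpr, robust quasi-likelihood fit with genotype as the only term, and Benjamini-Hochberg adjustment, with an adjusted p below 0.01 as the threshold. Comparisons across tables used 1 fit of the 4 groups concerned. Each standard error is the log2 fold change over the root of F, and 95% intervals use edgeR's degrees of freedom. FPKM was computed from the counts and the deposited length with TMM factors over 41 samples. CPM used TMM factors computed within each table. Counts were deposited as whole numbers, and 17572752 to 25680411 counts (inguinal WAT on HFD) or 8042591 to 11720458 (other tables) per mouse set the precision. The fits were tested on simulated data. DESeq2 1.42.0 was an alternative, as were other scaling, filters, thresholds, a replicate block, 1 fit of all groups and leaving out each mouse. Leaving out mice rich in skeletal muscle markers was added after seeing the data. Labels and methods do not say which mice gave both depots, so mice were taken as independent.

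The named genes are the 10 members, the called genes with the highest and the lowest log2 fold change of each other list, and the 5 genes most like Hspa5. The adipocyte markers are an exception, as their called genes are counted but not named. Other genes named were chosen after their values were seen. The members and lists were chosen with earlier results of these data known.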

Additional observations from a re-analysis of the deposited data

Results flagged for a closer look

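In 3 of 60 groups of a listed gene, 1 mouse stood apart from the rest of its group by Dixon's test, where chance gives about 5%. Xbp1 was at 230.3 CPM in chow-fed KI mouse 6, with the next mouse of the group at 165 CPM. Sdf2l1 was at 12.1 CPM in HFD-fed inguinal WT mouse 7, with the next at 8.94 CPM, and at 13.9 CPM in HFD-fed inguinal KI mouse 5, with the next at 9.23 CPM. The last of these mice also had 2228 summed CPM of skeletal muscle markers and 1488 of macrophage markers, the highest macrophage value of its group; their part in the Sdf2l1 value was not tested.

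The genotype difference of Pdia4 differed between depots on HFD by -0.58 on the log2 scale (edgeR's interaction term, adjusted p = 0.00457), with KI over WT at 0.38 in inguinal WAT and -0.24 in BAT. It was past the threshold in each fit that left out 1 mouse. The depot and the deposited table cannot be told apart.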

How the results depend on the processing

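The count of members called in inguinal WAT on HFD (3) was 5 at an adjusted p of 0.05, 1 at 0.001, 1 in a joint fit of all 6 groups and 0 without the mice rich in skeletal muscle markers. On chow (0) it was 3 at 0.05, 2 with DESeq2 and 1 without the mouse rich in these markers. In BAT (1) it was 0 at 0.001, 3 in the joint fit and 0 without the muscle-rich mice. Without these mice 1004, 402 and 192 of all genes were called in the 3 tables, against 1886, 472 and 243 with all mice. The depot interaction (1) had 2 at 0.05, BAT against inguinal WAT in WT mice (5) had 8 at 0.05, HFD against chow in WT mice (3) had 1 in the joint fit, and 23 correlated pairs in place of 12 passed without TMM factors. Leaving out 1 mouse gave 3 to 4 members in inguinal WAT on HFD, 0 to 1 on chow, 0 to 1 in BAT, 1 to 3 for diet in WT mice, 4 to 7 and 6 to 7 for depot in WT and KI mice, and 1 throughout for the depot interaction. The cause of these moves was not tested, apart from the thresholds themselves.

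Signs turned only for members that were not called. Hsp90b1 on chow was -0.00525 without mitochondrially encoded genes and -0.00326 with the replicate block. Hspa5 in BAT was 0.00644 with DESeq2, 6.19e-05 with RLE size factors, 0.00365 with no low-count filter, 0.0342 in the joint fit and 0.0867 without the muscle-rich mice. Hsp90b1 in BAT was 6.28e-04 in the joint fit and 0.0608 without the muscle-rich mice, which also gave -0.0580 for Hspa5 and -0.0181 for Sdf2l1 in inguinal WAT on HFD. Over the fits that left out 1 mouse, signs also turned for Dnajb9 (-0.0174 to 0.349), Hsp90b1 (-0.120 to 0.126) and Hspa5 (-0.0748 to 0.0651) in BAT, Hsp90b1 (-0.0349 to 0.0801), Pdia4 (-0.0725 to 0.00550) and Sdf2l1 (-0.295 to 0.0335) on chow, and Hspa5 (-0.0211 to 0.0779) and Sdf2l1 (-0.0368 to 0.207) in inguinal WAT on HFD. Of the members' log2 fold changes under the other alternatives, 216 kept direction and side of the threshold, 11 turned, 6 newly passed and 7 no longer passed.

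Same-numbered WT and KI mice correlated at -0.302 to 0.728 over genes, each best with its own number in 1 of 8, 0 of 6 and 3 of 6 pairs (inguinal WAT on HFD, on chow, BAT), so the numbers do not pair mice. With the replicate block Pdia4 in inguinal WAT on HFD was 0.39 and missed the threshold (adjusted p = 0.0219), leaving 2 members called in that table, and no other call of a member changed between genotypes. A filter of at least 10 counts in every mouse moved the median of all genes by -0.115 and -0.112 between depots in WT and KI mice. Sdf2l1 had the fewest counts of the members, 20 to 59 per mouse in BAT.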

Other observations

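The 48 other ER genes differed by diet more than by genotype in their count of calls, as did all genes. Diet and table cannot be told apart here. In inguinal WAT 28.2% (WT) and 30.6% (KI) of all genes were called by diet, and 11.5% (HFD) and 3.23% (chow) by genotype. In WT inguinal WAT 6 of the 48 were called higher and 19 lower on HFD than on chow (13.1% and 15.2% of all genes). In KI mice 8 were higher and 17 lower (15.2% and 15.4% of all genes). Of the 12 genes of protein entry into the ER, 8 were lower and 1 higher in each genotype. Sec61b and Sec61g, subunits of the translocon that were named after their values were seen, had log2 fold changes of -0.90 and -0.77 in WT and -1.01 and -1.09 in KI mice. Between depots, 10 of the 48 were higher and 17 lower in BAT of WT mice, and 12 higher and 16 lower in KI mice. Of all genes 26.9% were higher and 29.0% lower in BAT of WT mice and 28.4% and 30.6% in KI mice, so that the list was called about as often as other genes.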
